A study of Mus musculus with 12 samples.

Results

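Chromatin regulators other than KMT2A are themselves mutated in Mendelian disorders of neurodevelopment, and 44 such genes were followed here through neural progenitors that carry different doses of Kmt2a. The 44 genes were taken from a fixed list of epigenetic regulators, leaving out the KMT2, COMPASS, Polycomb and BAF genes, and their Ensembl identifiers were matched to mouse GRCm38 symbols. All 44 were found among the 18911 genes of the count table, and all 44 were among the 17076 genes with enough counts to be tested. The rule that chose them used no measured value, but it was set with earlier results of these data known.

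Chromatin regulators are commonly divided into writers, which add acetyl or methyl groups to histones or DNA, erasers, which take them off, readers, which bind the marked tails, and remodelers, which use ATP to slide or exchange nucleosomes. Loss of a single copy of many of these genes is enough to cause a syndrome with intellectual disability, such as CHARGE syndrome (Chd7), Rubinstein-Taybi syndrome (Crebbp and Ep300), Kabuki syndrome (Kdm6a), Sotos syndrome (Nsd1) and Kleefstra syndrome (Ehmt1). Wiedemann-Steiner syndrome has the same dosage logic for KMT2A, a methyltransferase of histone H3 lysine 4.

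RNA-Seq was done on neural progenitor cells (mNPCs) grown in culture from the hippocampus of newborn (P0) pups on a C57BL/6J background. The 4 genotypes were wild type (Kmt2a+/+), Kmt2a+/LSL, in which a loxP-stop-loxP cassette in intron 1 of 1 Kmt2a allele interrupts the transcript, Nes-Cre+/- Kmt2a+/+, which carries the Cre transgene with intact Kmt2a and is called the Cre control, and Nes-Cre+/- Kmt2a+/LSL, in which Cre can excise the cassette and which is called restored. Each genotype had 3 libraries. Nestin-Cre is active in the neural lineage and not in all tissues. The study's methods call the libraries of a genotype biological replicates, and the labels do not say which pups the cultures came from, so the p-values measure the spread between these libraries.

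Library totals lay between 18280008 and 28596919 estimated counts. Values are given as CPM, the counts scaled to a common library size after TMM normalization. Kmt2a itself was at 289, 300.3 and 281 CPM in the wild-type libraries, at 166, 166 and 167 CPM in the Kmt2a+/LSL libraries, at 283, 310.0 and 299 CPM in the Cre control and at 273, 284 and 259 CPM in the restored libraries. The 3 Kmt2a+/LSL libraries lay below the other 9, as their label has it, while the other 3 genotypes lay too close together for Kmt2a to tell their labels apart. These counts sum all Kmt2a transcripts. The study reports a shift to a truncated Kmt2a isoform in Kmt2a+/LSL cells, so the counts do not give the full-length dose. All 10 progenitor markers examined, Nes, Sox2 and Pax6 among them, had a median above 1 CPM, summed neuronal markers lay between 1016 and 1917 CPM (6 of 8 above 1 CPM, but with 979.8 to 1874 CPM from Map2 alone and no other marker above 28.2 CPM in any library), summed microglial markers reached at most 2.08 CPM, mesenchymal and mural markers 3.06 CPM, endothelial markers 5.12 CPM and ependymal markers 34.8 CPM, while astrocyte markers summed to between 1388 and 4629 CPM and oligodendrocyte lineage markers to between 494 and 1416 CPM, both with the lowest and the highest library among the wild types. Whether these markers come from other neural cells was not tested, nor was the part of such cells in the results below. In bulk RNA a smaller share of cells cannot be told apart from less RNA per cell. Kmt2a+/+ replicate 1 stood apart from the other 11 libraries: 60.3% of genes with a mean of at least 10 CPM differed in it by more than 1.5-fold from the median of the others, against 1.41% to 12.1% in the other libraries. The astrocyte sum (1388 CPM) and oligodendrocyte lineage sum (494 CPM) were lowest in this library, and the neuronal sum (1917 CPM) was highest. Of markers picked after seeing the values, Hes5 was at 2.14 CPM in it (45.8 to 160 in the others). Notch1 was at 359 CPM (767 to 1223) and Fabp7 at 8960 CPM (2430 to 4932). It had the smallest total and 15176 genes with counts (16205 to 17073 in the others). Whether these marker values reflect its cells was not tested. Results that rest on the wild type are therefore given with and without this library.

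Most of these chromatin genes were well expressed. CPM per kilobase of the longest protein-coding transcript, the only scale on which genes are compared with each other here, averaged between 5.64 (Mbd5) and 80.8 (Chd4) in 41 of the 44. Asxl3, Hdac4 and Srcap formed a separate low group at 0.441, 0.416 and 0.341 CPM per kilobase, and their ranges over the libraries overlapped. The summed CPM of the 44 genes lay between 5732 and 6570 in the 12 libraries.

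**Figure D1:**
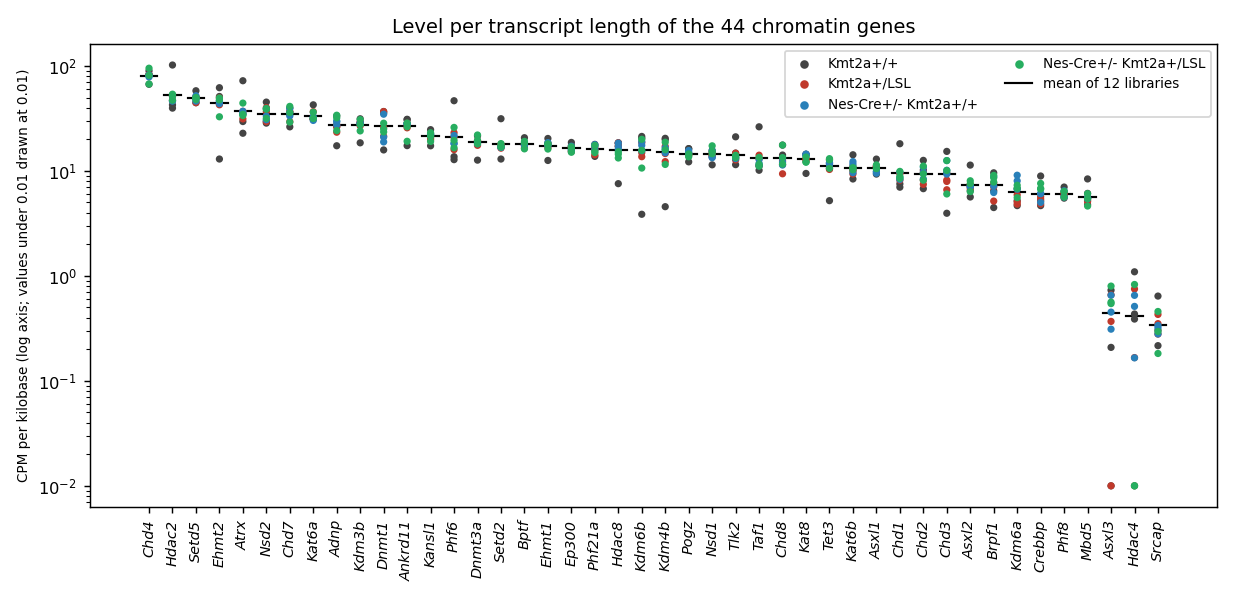
Level per transcript length (CPM per kilobase, log axis) of the 44 chromatin genes in order of their mean; each point is 1 library, colored by genotype, and the bar is the mean of 12 libraries (values under 0.01 are drawn at 0.01). Chd4 leads at a mean of 80.8, and Asxl3, Hdac4 and Srcap lie below 1.1 in every library.

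Among the ATP-dependent remodelers, Chd4, the main ATPase of the NuRD complex, was the highest of all 44 genes per length in the mean of 12 libraries. In Kmt2a+/+ replicate 1 Hdac2 (102 CPM per kilobase) and Atrx (72.2) exceeded Chd4 (66.8). In CPM, Chd4 (6:125095981-125130591, GRCm38) measured 447, 552 and 601 in wild type, 545, 557 and 543 in Kmt2a+/LSL, 542, 525 and 551 in the Cre control and 451, 545 and 637 in the restored libraries. The genotypes overlapped, and the Kmt2a+/LSL libraries had the narrowest spread, with a coefficient of variation of 1.37%. Its paralog Chd3 was lower per length in 12 of 12 libraries, by a median of 9.38-fold. Chd7, the CHARGE syndrome gene, stood above its relative Chd8 per length in 12 of 12 libraries with a median ratio of 2.75. Srcap, which exchanges histone H2A for H2A.Z, was the lowest of the 44 per length in the mean of 12 libraries. With the union of all exons as the length Hdac4 was lowest, at 0.213 CPM per kilobase against 0.230 for Srcap. Srcap (7:127511983-127561219) gave 39 to 122 estimated counts per library, or 6.84, 2.31 and 3.23 CPM in wild type, 4.57, 3.74 and 2.97 CPM in Kmt2a+/LSL, 3.41, 3.59 and 2.98 CPM in the Cre control and 1.94, 3.15 and 4.88 CPM in the restored libraries. No genotype stood apart, and its level is uncertain, since 64.4% of its 31-base words also occur in the overlapping gene model Gm42715, which was not in the table used here.

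Among the writers, related enzymes differed in level in a stable order. Ehmt2 (G9a) exceeded Ehmt1 (GLP), with which it forms the heterodimer that dimethylates H3 lysine 9, in 12 of 12 libraries by a median of 2.59-fold per length. Ep300 exceeded its paralog acetyltransferase Crebbp in 12 of 12 libraries by a median of 2.84-fold. Kat6a, a catalytic subunit of the complex that Brpf1 scaffolds, exceeded Kat6b in 12 of 12 libraries by a median of 3.09-fold, and the H3 lysine 36 methyltransferase Nsd2 exceeded Nsd1 in 12 of 12 by a median of 2.44-fold. Among the erasers, the H3 lysine 27 demethylase Kdm6b exceeded Kdm6a in 11 of 12 libraries by a median of 2.61-fold, and the exception was Kmt2a+/+ replicate 1. The maintenance DNA methyltransferase Dnmt1 exceeded the de novo enzyme Dnmt3a in 11 of 12, and Asxl1 exceeded Asxl2 in 12 of 12, while Asxl3 was far lower. With the union of all exons as the length, the ratio of the means still exceeded 1 in all of these pairs, from 1.54 for Nsd2 over Nsd1 to 8.39 for Chd4 over Chd3.

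Over the 11 libraries other than Kmt2a+/+ replicate 1, the highest value was a median of 1.40 times the lowest for the 41 genes with a mean of at least 10 CPM, and 90.2% of them stayed under 2-fold, against a median of 1.62 and 76.9% for the 9444 genes at that level. Setd5 varied least of the 41, 1.17-fold over the 11 libraries, and Chd3 most, 2.54-fold. Over all 12 libraries the median was 1.84, 63.4% of the 41 stayed under 2-fold (40.7% of the 9444 genes), and Kdm6b varied most of them, 5.51-fold. Dnmt1, the maintenance methyltransferase, spread widely within genotypes: 209, 92.9 and 216 CPM in wild type, 216, 125 and 152 CPM in Kmt2a+/LSL, 203, 123 and 111 CPM in the Cre control and 147, 138 and 167 CPM in the restored libraries. The ranges of the 4 genotypes overlapped. Dnmt1, like other genes described below outside the 10 that the naming rule picked, was singled out after its values were seen.

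Libraries with few or no counts marked the low group. Hdac4, a class IIa deacetylase mutated in a brachydactyly and intellectual disability syndrome (1:91928779-92195699), had the largest coefficient of variation within a genotype, 173% in the restored cells. Hdac4 was at 3.51, 3.14 and 8.86 CPM in wild type, 1.35, 0 and 6.08 CPM in Kmt2a+/LSL, 1.34, 4.15 and 5.28 CPM in the Cre control and 0, 6.71 and 0 CPM in the restored libraries. It is listed at 0 in 3 libraries while others hold up to 258 estimated counts, and 21.9% of its 31-base words occur in the overlapping model Gm26720. Asxl3 had 1 estimated count in 2 libraries, Kmt2a+/+ replicate 1 and Kmt2a+/LSL replicate 3, and up to 215 in the others. Hdac4, Asxl3 and Srcap are included by sign in the counts over the list below, whatever the width of their intervals.

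**Figure D2:**
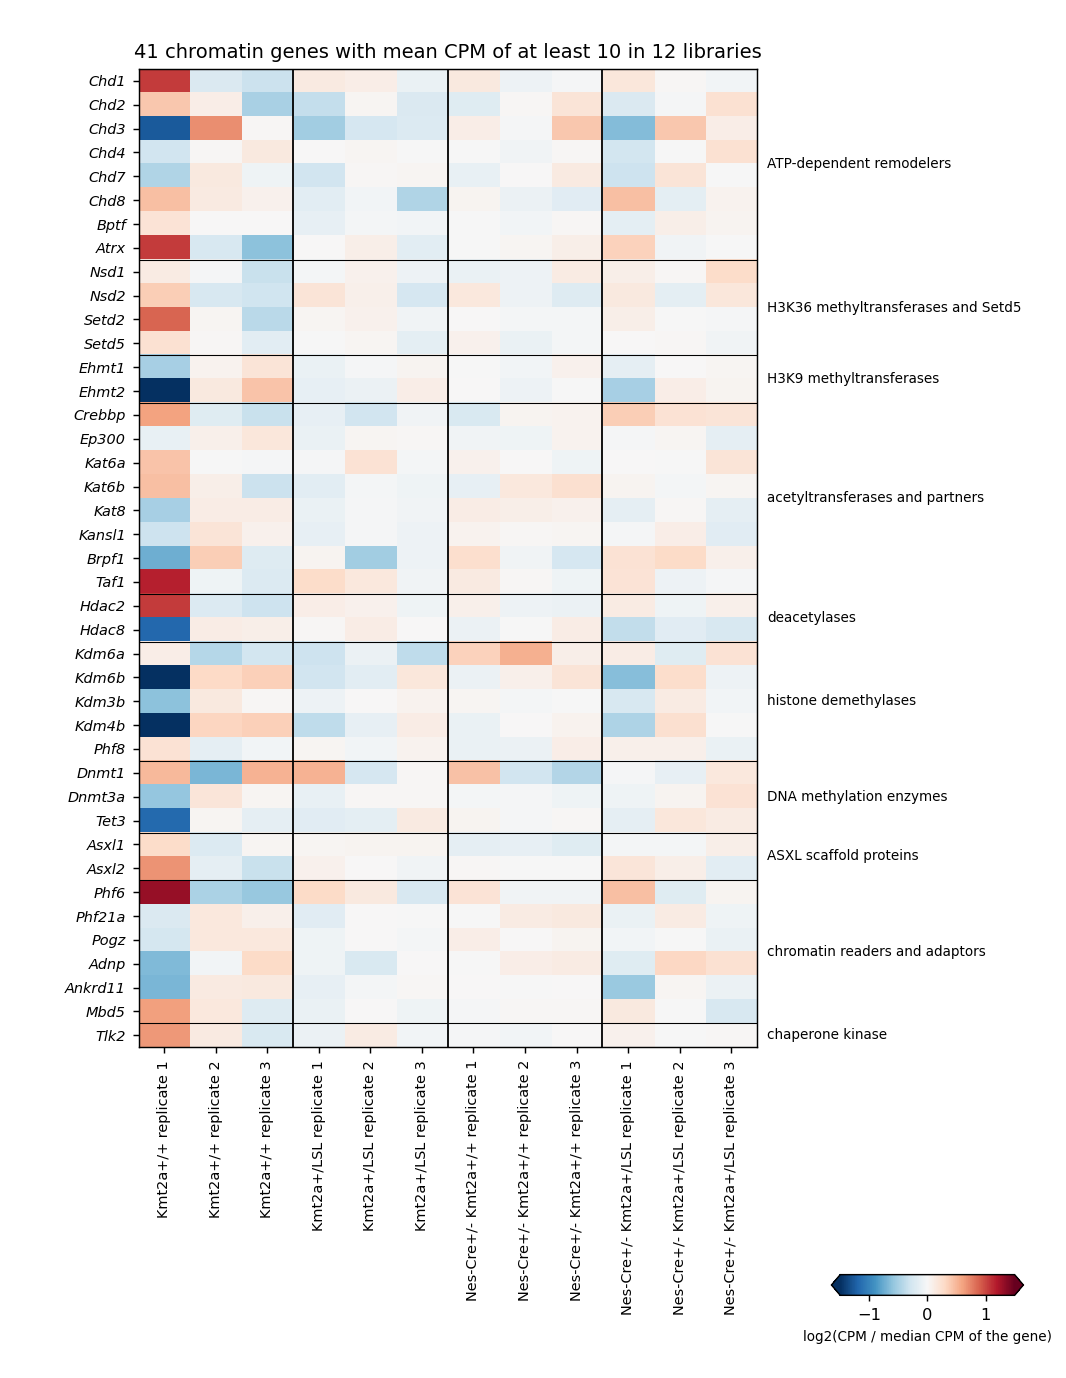
CPM of 41 chromatin genes in each of the 12 libraries, as log2 of the ratio to the gene's own median (color; values past 1.5 are drawn at the end of the scale); rows are grouped by role and vertical lines separate the genotypes. The first column, Kmt2a+/+ replicate 1, holds the strongest red and blue cells, while the other 11 columns are pale.

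Kmt2a+/+ replicate 1 was the highest library for 19 of the 44 genes and the lowest for 18, and 23 of the 44 lay more than 1.5-fold from the median of the other libraries in it, against 1 to 4 in any other library. The plant homeodomain gene Phf6 stood at 203 CPM there against 59.4 and 55.7 in the other wild types, and Atrx, which loads histone H3.3 with Daxx, at 742 against 303 and 235. Kdm6b stood at 25.7 CPM against 136 and 142, and Ehmt2 at 52.2 against 206 and 249.6. Departures thus went both ways within the same library, 7 genes being more than 2-fold higher and 7 more than 2-fold lower than the mean of replicates 2 and 3.

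The direction ran with base composition. Stretches of 90 coding bases, taken from the middle of the largest coding segment of each gene, are shown for 2 of the genes of low GC content that were high in this library, and for 2 of those of high GC content that were low in it, picked after their values were seen. Capitals mark G and C, lower case marks A and T, and the sequences are from the GENCODE vM21 transcripts (GRCm38), read 5′ to 3′ on the coding strand.
Phf6: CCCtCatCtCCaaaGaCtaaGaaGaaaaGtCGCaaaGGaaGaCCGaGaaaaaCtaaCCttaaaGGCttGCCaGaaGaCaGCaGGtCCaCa
Atrx: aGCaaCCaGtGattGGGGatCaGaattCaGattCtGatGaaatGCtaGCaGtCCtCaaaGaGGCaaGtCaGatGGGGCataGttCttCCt
Kdm6b: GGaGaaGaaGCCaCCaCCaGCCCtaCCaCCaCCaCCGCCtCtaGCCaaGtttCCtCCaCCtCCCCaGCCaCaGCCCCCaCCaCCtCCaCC
Ehmt2: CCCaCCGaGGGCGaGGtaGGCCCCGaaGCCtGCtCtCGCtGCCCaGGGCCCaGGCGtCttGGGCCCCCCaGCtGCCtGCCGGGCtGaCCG
The stretches lie in Phf6 at chrX:52940263-52940352 (plus strand, exon 6 of 11), in Atrx at chrX:105876021-105876110 (minus strand, exon 9 of 35), in Kdm6b at chr11:69405044-69405133 (minus strand, exon 11 of 23) and in Ehmt2 at chr17:34899068-34899157 (plus strand, exon 1 of 27). G and C made up 45.6% of the first 2 stretches, 65.6% of that of Kdm6b and 76.7% of that of Ehmt2, and over the whole transcript 39.1% in Phf6, 39.5% in Atrx, 59.6% in Kdm6b and 60.8% in Ehmt2.

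Over the 41 genes with a mean of at least 10 CPM, the log2 ratio of Kmt2a+/+ replicate 1 to the mean of replicates 2 and 3 had a Pearson r of -0.87 and a Spearman rho of -0.83 with transcript GC content. Over all 44 genes r was -0.50 and rho was -0.70, with Asxl3 at a log2 ratio of -6.53 from 1 estimated count in replicate 1. Over the 9444 genes of the table with at least 10 CPM r was -0.76. These are descriptions across genes, which share the same 3 libraries. Of the 14 genes with the lowest GC content (39.1% to 47.5%), 13 were higher in replicate 1. Of the 15 with the highest (51.7% to 60.8%), 3 were higher and 11 were lower by more than 1.5-fold. The other 2 wild types leaned the opposite way: relative to the mean of the 9 libraries of the other genotypes, the 13 genes of lowest GC content with at least 10 CPM had a median ratio of 0.904 in replicate 2 and 0.796 in replicate 3, and the 13 of highest GC content 1.13 and 1.09. Restored replicate 1 leaned the same way as Kmt2a+/+ replicate 1, though less, with a median ratio of 1.10 for the genes of lowest GC content and 0.860 for those of highest, and 12.1% of genes with a mean of at least 10 CPM more than 1.5-fold from the median of the other libraries. The cause of this relation was not tested.

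**Figure D3:**
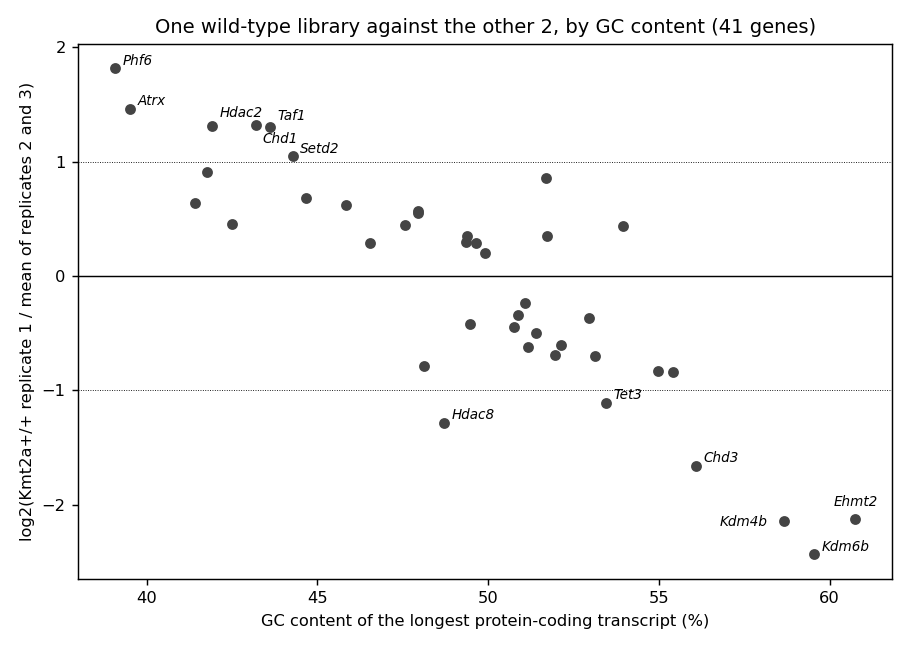
Ratio of Kmt2a+/+ replicate 1 to the mean of Kmt2a+/+ replicates 2 and 3 (log2 of CPM) against the GC content of the longest protein-coding transcript (%), for 41 chromatin genes; dotted lines mark 2-fold. Genes of low GC content such as Phf6 and Atrx lie above 0 and genes of high GC content such as Kdm6b, Kdm4b and Ehmt2 below.

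The first comparison asked whether Kmt2a haploinsufficiency moved other Mendelian chromatin genes. None of the 44 was called between Kmt2a+/LSL and wild type by edgeR's quasi-likelihood test (Benjamini-Hochberg adjusted p under 0.05, adjusted p = 1 at the lowest), where 0% of all genes tested were called. DESeq2 also called none of the 44 (0.041% of all genes), and 1 of the 44, Chd8, had an unadjusted p under 0.05 in edgeR (1.79% of all genes), as it did with an offset for GC content fitted in each library (3.74% of all genes). Their median log2 fold change was -0.07 against 0.00 over all genes, with 30 of 44 lower (49.8% of all genes were lower). With the GC offset 40 of 44 were lower (58% of all genes), without Kmt2a+/+ replicate 1, 25 were (50% of all genes), and with both 31 were (51.1% of all genes). In the fit of 12 libraries Kmt2a itself, at 0.573 of wild type with no overlap, had an edgeR adjusted p of 0.281, and 6.09e-18 with DESeq2. Without Kmt2a+/+ replicate 1 the edgeR adjusted p of Kmt2a was 0.0437, and again none of the 44 was called (0.0118% of all genes), with the lowest adjusted p at 0.551.

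Chd8, a remodeler whose loss is among the best established causes of autism, had the smallest p (14:52198151-52257780). Chd8 measured 149.8, 120.5 and 114 CPM in wild type, 97.8, 106 and 79.8 CPM in Kmt2a+/LSL, 112, 103 and 96.8 CPM in the Cre control and 149.9, 98.7 and 114 CPM in the restored libraries. All 3 Kmt2a+/LSL libraries and all 3 Cre control libraries lay below all 3 wild types, while the restored libraries ran from 98.7 to 149.9 CPM, with a high replicate 1, and overlapped each of the other genotypes. The fitted log2 difference between Kmt2a+/LSL and wild type was -0.44 (SE 0.19, 95% interval -0.86 to -0.01, edgeR adjusted p = 1), or 0.739 of the wild-type level. A two-sided exact permutation test gave p = 0.1, the smallest that 3 against 3 libraries allow. Without Kmt2a+/+ replicate 1 the difference was -0.31 (SE 0.18, edgeR adjusted p = 0.591).

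Mbd5, a methyl-CpG binding domain protein gene (2:48949508-49325405), was next. Mbd5 measured 71.6, 52.2 and 40.7 CPM in wild type, 43.7, 46.9 and 44.8 CPM in Kmt2a+/LSL, 46.3, 47.1 and 47.1 CPM in the Cre control and 51.8, 46.5 and 39.5 CPM in the restored libraries. Only the first wild-type library was high, and the log2 difference of Kmt2a+/LSL from wild type went from -0.28 (SE 0.20) to -0.04 (SE 0.15) without it.

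Tlk2, a kinase that phosphorylates the histone chaperone Asf1 (11:105178807-105283959), showed the same dependence. Tlk2 measured 116, 81.3 and 63.0 CPM in wild type, 69.9, 80.8 and 71.9 CPM in Kmt2a+/LSL, 73.2, 71.9 and 74.4 CPM in the Cre control and 77.3, 73.7 and 75.3 CPM in the restored libraries. The 9 other libraries lay within the range of wild-type replicates 2 and 3, and the log2 difference turned from -0.23 (SE 0.20) to 0.04 (SE 0.12) without replicate 1.

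Without overlap between the 3 and 3 libraries, Chd8 and Bptf, the largest subunit of the NURF remodeler, were lower in Kmt2a+/LSL, 2 of 44 genes (4.05% of all genes did not overlap in either direction). Bptf measured 249, 217 and 217 CPM in wild type and 198, 213 and 209.6 CPM in Kmt2a+/LSL. With only wild-type replicates 2 and 3, 20 of the 44 did not overlap (28.7% of all genes). The 6 that were higher in Kmt2a+/LSL, Chd1, Atrx, Taf1, Hdac2, Asxl2 and Phf6, had transcripts of 39.1% to 43.6% GC. The 14 that were lower, among them Chd3, Ehmt2, Kdm6b, Kdm4b and Ankrd11, had 49.4% to 60.8% GC, so these directions split the genes by the property along which the wild-type libraries differed. Of the 6 genes with an unadjusted p under 0.05 in that fit (8.95% of all genes), Phf6 had the smallest p, with a log2 difference of 0.60 (SE 0.21, edgeR adjusted p = 0.551). With the GC offset in the same libraries, Chd3 and Pogz were the genes with an unadjusted p under 0.05 (4.37% of all genes), and Phf6 was not among them.

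Set against all 9 other libraries, the Kmt2a+/LSL libraries stood apart for none of the 44 genes (0.363% of all genes did not overlap), and none was called (0.00586% of all genes). By DESeq2 also none was called (0.0234% of all genes), and none had an unadjusted p under 0.05 in edgeR (1.2% of all genes). With the GC offset Chd3 and Chd8 had one (2.08% of all genes), at -0.44 (SE 0.19) and -0.33 (SE 0.15) on the log2 scale, each with an edgeR adjusted p of 1.00, and with the offset and without Kmt2a+/+ replicate 1 Chd3 and Kdm6a did (3.24% of all genes). By role, all 8 acetyltransferases and their partners had a fitted value below 0, but 6 of 8 without Kmt2a+/+ replicate 1. The remodelers had 7 of 9 below 0 and 6 without that library, the readers and adaptors 5 of 6 in both fits, and the demethylases 3 of 5 and 4. The H3 lysine 36 methyltransferases with Setd5 went from 3 of 4 to 1, the deacetylases from 2 of 3 to 1, the Asxl genes from 2 of 3 to 1 and the DNA methylation enzymes from 1 of 3 to 2. Both H3 lysine 9 methyltransferases turned from above 0 to below 0. In all, 32 of 44 were lower (49.1% of all genes), 28 without Kmt2a+/+ replicate 1 (46.3% of all genes) and 42 with the GC offset (54.3% of all genes), or 30 with the offset and without that library (50.6% of all genes), and the median log2 difference was -0.05 against 0.00 over all genes. Genes are not replicates of a genotype, and no test was made over the list.

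Chd3, the NuRD ATPase of Snijders Blok-Campeau syndrome, was the 1 gene with an unadjusted p under 0.05 in this comparison without Kmt2a+/+ replicate 1 (2.87% of all genes, and 0.0118% were called). Chd3 measured 28.7, 111 and 69.7 CPM in wild type, 48.0, 57.6 and 59.4 CPM in Kmt2a+/LSL, 73.6, 67.7 and 91.1 CPM in the Cre control and 43.8, 91.0 and 73.3 CPM in the restored libraries. The Kmt2a+/LSL libraries lay below all but wild-type replicate 1 and restored replicate 1, which were the lowest of all. The log2 difference from the other genotypes was -0.39 (SE 0.34) with 12 libraries and -0.51 (SE 0.21, edgeR adjusted p = 1.00) without Kmt2a+/+ replicate 1. With that library left out the Kmt2a+/LSL libraries again stood apart for none of the 44 (0.624% of all genes).

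The size of change that these data leave room for can be read from the intervals. The 95% interval of the difference from the other genotypes lay within 1.5-fold in either direction for 25 of the 44 genes (30.4% of all genes) and within 2-fold for 41 (60.5% of all genes). Without Kmt2a+/+ replicate 1 these were 38 (52% of all genes) and 42 (69.1% of all genes). These shares were not matched for level: 41 of the 44 genes had a mean of at least 10 CPM, but only 9444 of the 17076 tested. The interval of Kmt2a ran from -1.02 to -0.55 on the log2 scale.

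**Figure D4:**
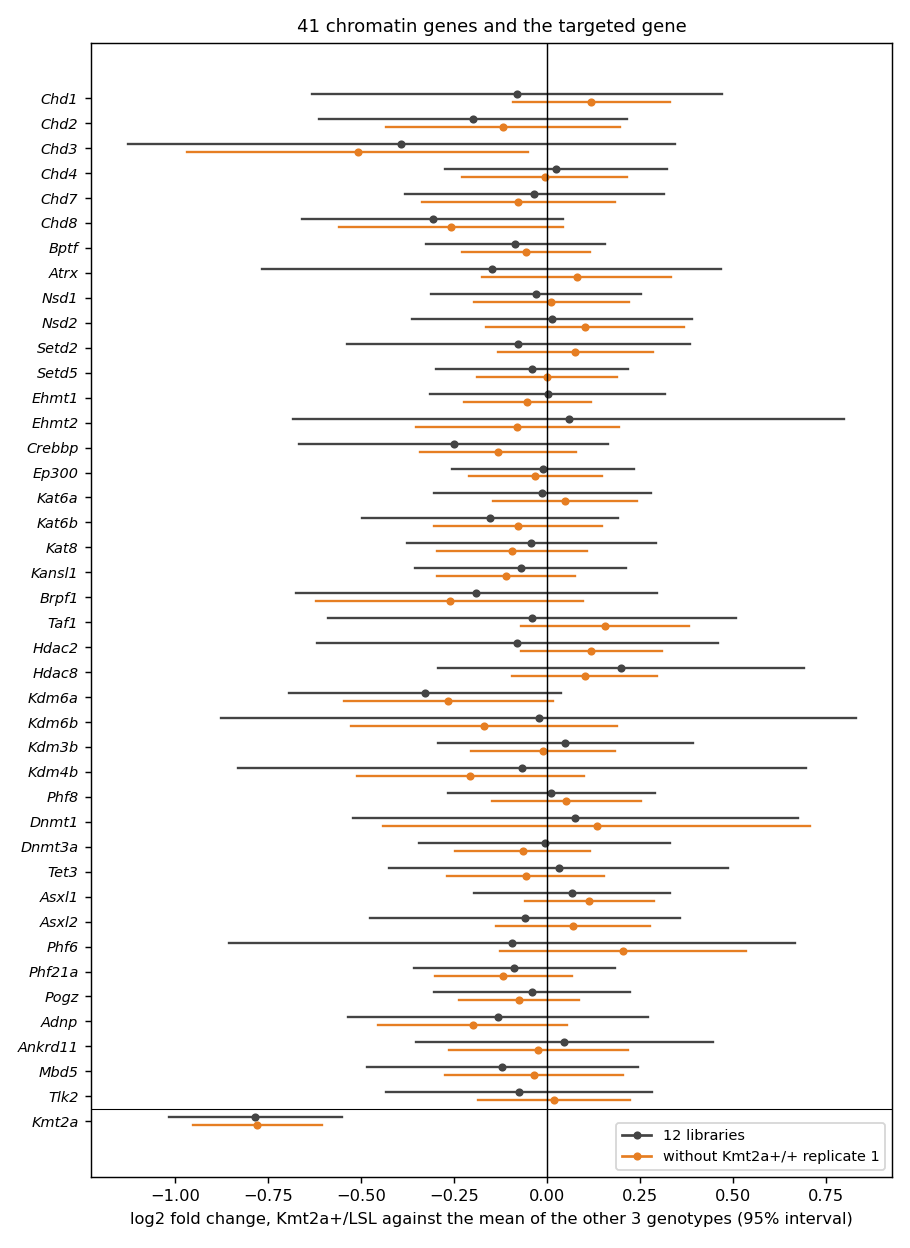
Log2 fold change (points) with 95% interval (lines) of Kmt2a+/LSL against the mean of the other 3 genotypes, for 41 chromatin genes and Kmt2a, from edgeR with 12 libraries (dark) and without Kmt2a+/+ replicate 1 (orange). Kmt2a lies well below 0 in both fits, and with 12 libraries every chromatin gene's interval spans 0.

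The second comparison asked what differed once the cassette could be excised, and it shares the Kmt2a+/LSL libraries with the comparisons above. Restored replicate 1, which leaned along GC content as described, is in this comparison and the next. With it left out edgeR called none of the 44 in either (0% of all genes), the median log2 fold change was 0.04 here and 0.03 in the next, and Crebbp stood at 0.35 and 0.24. None of the 44 was called between restored and Kmt2a+/LSL cells by edgeR (0% of all genes), none by DESeq2 (0.041% of all genes) and none had an unadjusted p under 0.05 (1.61% of all genes, and none with the GC offset, 2.51%). The median log2 fold change was 0.03 against 0.00 over all genes, with 15 of 44 lower (49.5% of all genes), or 10 with the GC offset (45.6% of all genes). None was called without Kmt2a+/+ replicate 1 (0.00589% of all genes), and Crebbp and Hdac8 had an unadjusted p under 0.05 (3.89% of all genes), with the GC offset Chd8 as well (4.89% of all genes). In 4 of 44 genes the libraries did not overlap (7.1% of all genes): Crebbp, Kat6b and Brpf1 were higher in the restored libraries and Hdac8 was lower. Normalized without Kmt2a+/+ replicate 1, Crebbp and Hdac8 alone did not overlap (7.33% of all genes). Kat6b had measured 71.9, 78.8 and 76.8 CPM in Kmt2a+/LSL and 82.6, 78.8 and 81.7 CPM in the restored libraries, and Brpf1 37.0, 24.9 and 34.0 CPM and 41.5, 43.7 and 37.8 CPM, so that both separations were narrow, that of Kat6b resting on a gap smaller than the rounding of these values.

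Crebbp, the Rubinstein-Taybi acetyltransferase (16:4081328-4213997), was high in the restored libraries. Crebbp measured 96.7, 56.1 and 50.5 CPM in wild type, 58.5, 52.2 and 61.5 CPM in Kmt2a+/LSL, 54.2, 65.7 and 65.7 CPM in the Cre control and 82.2, 73.7 and 72.6 CPM in the restored libraries. The restored libraries lay above all Kmt2a+/LSL and all Cre control libraries, and above wild-type replicates 2 and 3, but below wild-type replicate 1. The log2 difference from Kmt2a+/LSL was 0.41 (SE 0.23, 95% interval -0.09 to 0.91, edgeR adjusted p = 1), and 0.40 (SE 0.11, 95% interval 0.15 to 0.65, edgeR adjusted p = 1) without Kmt2a+/+ replicate 1. The two-sided exact permutation test gave p = 0.1, the smallest possible.

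Hdac8, an X-linked deacetylase that acts on cohesin and is mutated in a form of Cornelia de Lange syndrome (X:102284639-102505359), went the other way. Hdac8 measured 14.6, 35.9 and 35.3 CPM in wild type, 33.5, 35.8 and 33.1 CPM in Kmt2a+/LSL, 31.1, 33.0 and 35.6 CPM in the Cre control and 25.7, 29.4 and 27.9 CPM in the restored libraries. Apart from wild-type replicate 1 the 3 restored libraries were the lowest of all. The log2 difference from Kmt2a+/LSL was -0.30 (SE 0.28, edgeR adjusted p = 1), and -0.31 (SE 0.11, edgeR adjusted p = 1) without that library.

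Against the Cre control, which shares the transgene, the restored cells again had none of the 44 called by edgeR (0% of all genes), DESeq2 (0.0176% of all genes) or at an unadjusted p under 0.05 (1.11% of all genes, and none with the GC offset, 1.88%). The median log2 fold change was 0.01 against 0.00 over all genes, with 20 of 44 lower (48.9% of all genes), or 19 with the GC offset (43.7% of all genes). Crebbp and Asxl1 were higher without overlap and Kat8, Hdac8 and Pogz lower, 5 of 44 genes (6.68% of all genes), and the same 5 without Kmt2a+/+ replicate 1 (6.7% of all genes). In that fit none was called (0% of all genes), and Crebbp and Hdac8 had an unadjusted p under 0.05 (3.23% of all genes), with the GC offset Asxl1 as well (4.01% of all genes). This comparison shares the restored libraries with the previous one, so the recurrence of Crebbp and Hdac8 is not independent. The log2 difference of Crebbp was 0.30 (SE 0.23) and that of Hdac8 -0.26 (SE 0.28), both with an edgeR adjusted p of 1. Kat8, which acetylates H4 lysine 16 in the NSL and MSL complexes, measured 22.8, 22.4 and 22.0 CPM in the Cre control and 19.2, 21.4 and 19.1 CPM in the restored libraries, a narrow separation. Asxl1, a partner of the H2A deubiquitinase Bap1, measured 68.4, 69.0 and 66.3 CPM in the Cre control and 73.4, 73.7 and 79.6 CPM in the restored libraries. Pogz, the gene of White-Sutton syndrome, measured at least 93.9 CPM in the Cre control and 90.7, 93.0 and 87.2 CPM in the restored libraries. Kmt2a+/LSL libraries lay at 76.2 to 77.3 CPM for Asxl1 and at 89.4 to 93.7 CPM for Pogz, within the restored range for Asxl1.

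Nestin-Cre alone was compared with wild type as a control for the transgene. None of the 44 was called by edgeR (0% of all genes) or DESeq2 (0.0176% of all genes), the median log2 fold change was -0.01 against 0.01 over all genes with 23 of 44 lower (47.9% of all genes) or 33 with the GC offset (56.9% of all genes), and 1 of 44, Chd8, did not overlap (4.35% of all genes), being lower in the Cre control. One gene, Kdm6a, had an unadjusted p under 0.05 (1.4% of all genes), and Kdm6a and Tet3 did with the GC offset (3.12% of all genes). Without Kmt2a+/+ replicate 1, 19 of the 44 did not overlap (29.5% of all genes), the 8 higher genes at 39.1% to 43.6% GC and the 11 lower ones at 48.7% to 60.8%. None was called in that fit (0% of all genes), and 4 had an unadjusted p under 0.05, namely Kdm6a, Atrx, Phf6 and Chd1, all higher in the Cre control (6.09% of all genes). In the same fit 23 of 44 were lower (50.2% of all genes), and with the GC offset added 25 were (51.8% of all genes) and Kdm6a alone had an unadjusted p under 0.05 (3.34% of all genes).

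Kdm6a (UTX), the X-linked demethylase of Kabuki syndrome that escapes X inactivation (X:18162575-18279936), had the smallest p over the 4 genotypes. Kdm6a measured 40.2, 27.7 and 30.9 CPM in wild type, 30.1, 35.1 and 28.6 CPM in Kmt2a+/LSL, 47.7, 54.0 and 39.7 CPM in the Cre control and 40.5, 33.0 and 43.3 CPM in the restored libraries. The log2 difference between Cre control and wild type was 0.52 (SE 0.20, 95% interval 0.08 to 0.96, edgeR adjusted p = 1), and 0.68 (SE 0.17, edgeR adjusted p = 0.733) without Kmt2a+/+ replicate 1. Over the 4 genotypes Kdm6a was the 1 of 44 genes with an unadjusted p under 0.05 (1.15% of all genes), with an edgeR adjusted p of 1.00, and none was called by edgeR (0% of all genes) or DESeq2 (0.0293% of all genes). None of the 44 was called without Kmt2a+/+ replicate 1 either (0.0177% of all genes), and 5 had an unadjusted p under 0.05 (5.35% of all genes), Kdm6a, Crebbp, Hdac8, Atrx and Phf6. With the GC offset Kdm6a and Tet3 had one (1.99% of all genes), and with the offset and without that library Kdm6a, Crebbp, Hdac8 and Asxl1 did (3.82% of all genes).

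The libraries also differed in Y-linked transcripts, unevenly across the genotypes. Y-linked genes summed to at least 159 CPM in 8 libraries and to at most 1.62 CPM in 4: wild-type replicate 3, Cre control replicates 1 and 2 and restored replicate 3. All 3 Kmt2a+/LSL libraries held Y-linked transcripts. Kdm6a had a median of 34.0 CPM (range 27.7 to 40.5) in the libraries with Y-linked transcripts and of 45.5 CPM (range 30.9 to 54.0) in those without. Within the libraries without them, Cre control replicates 1 and 2 stood at 47.7 and 54.0 CPM against 30.9 CPM in wild-type replicate 3. Within those with them, Cre control replicate 3 stood at 39.7 CPM against 40.2 and 27.7 CPM in wild-type replicates 1 and 2. With the Y-linked level as a covariate the difference was 0.47 on the log2 scale (edgeR adjusted p = 1). Of the other 5 X-linked genes, Atrx, Taf1, Hdac8, Phf8 and Phf6, each had overlapping ranges between the 2 sets of libraries. The part of sex in the Kdm6a values was not tested further.

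Tet3, which oxidizes methylated cytosine (6:83362373-83459084), was the third gene by p in the comparison of Cre control and wild type. Tet3 measured 56.7, 129 and 116 CPM in wild type, 113, 115 and 139 CPM in Kmt2a+/LSL, 131, 125 and 129 CPM in the Cre control and 115, 142.6 and 139 CPM in the restored libraries. Wild-type replicate 1 was low, and the log2 difference was 0.35 (SE 0.26) with it and 0.06 (SE 0.13) without it, with edgeR adjusted p of 1 and 0.919. With the GC offset it was 0.24 (SE 0.10, unadjusted p = 0.0439, edgeR adjusted p = 0.953) with 12 libraries and 0.17 (SE 0.10, edgeR adjusted p = 1) without that library.

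**Figure D5:**
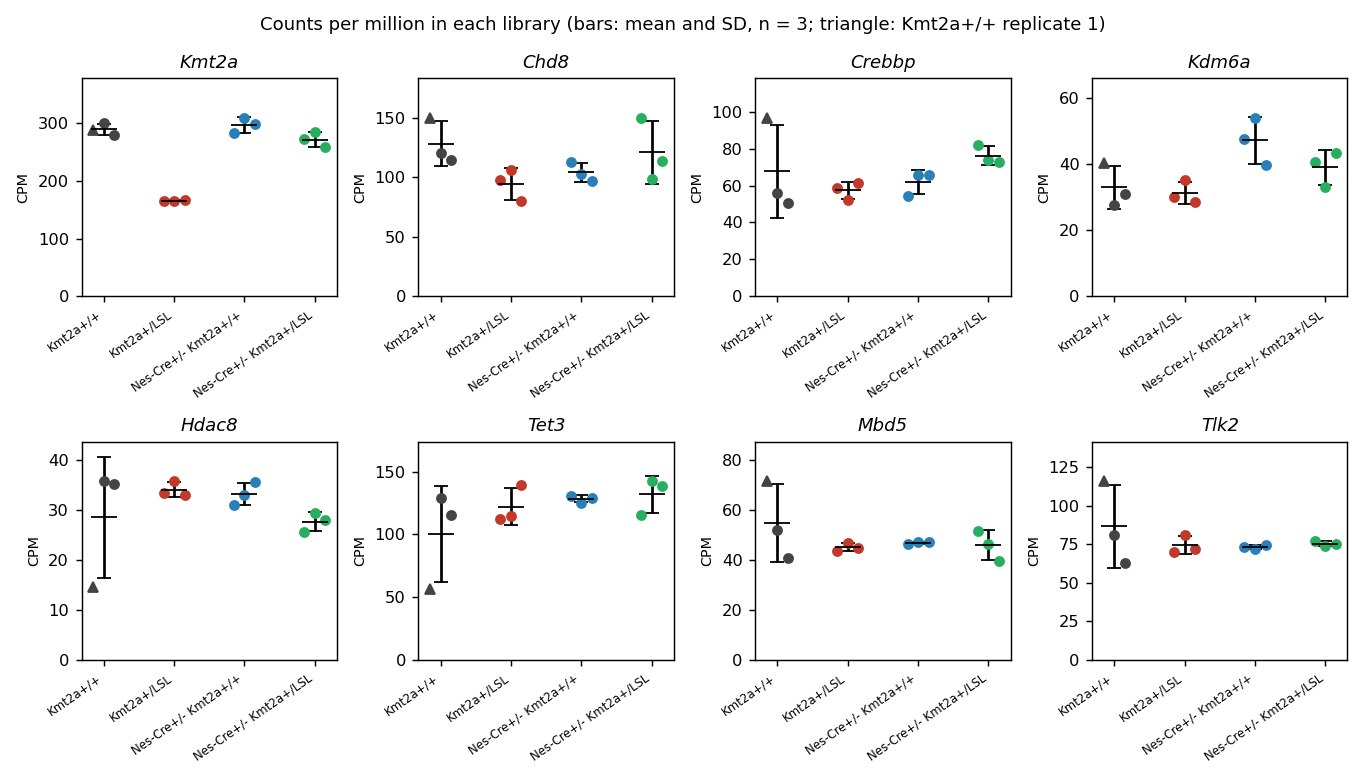
CPM of Kmt2a and of the 7 chromatin genes with the smallest p in any comparison, by genotype; points are libraries, the triangle is Kmt2a+/+ replicate 1, and bars give the mean and SD of 3 libraries. Kmt2a separates the Kmt2a+/LSL libraries from all others, while in each of the 7 chromatin genes the triangle is the wild-type point farthest from the other 2.

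Whether the effect of the cassette differed with and without Cre was tested as the difference of the 2 cassette effects. None of the 44 was called by edgeR (0% of all genes) or DESeq2 (0.0586% of all genes). The median difference was 0.10 on the log2 scale against 0.00 over all genes, and 0.02 without Kmt2a+/+ replicate 1. Of the 44, 14 had a negative difference (50.2% of all genes), or 5 with the GC offset (41.7% of all genes). Without Kmt2a+/+ replicate 1 these were 21 (52.2% of all genes) and 13 (45.9% of all genes). Chd8 was the 1 gene with an unadjusted p under 0.05 (1.73% of all genes), its effect being -0.44 without Cre and 0.22 with Cre, a difference of 0.65 (SE 0.27, 95% interval 0.05 to 1.25, edgeR adjusted p = 1.00). Without Kmt2a+/+ replicate 1 the difference was 0.52 (SE 0.24, edgeR adjusted p = 0.995), no gene of the 44 was called (0% of all genes) or had an unadjusted p under 0.05 (3.31% of all genes), and Kmt2a itself had 0.67 in both fits. With the GC offset Chd8 was again the 1 gene with an unadjusted p under 0.05, both with 12 libraries, at 0.71 (SE 0.25, 2.94% of all genes), and without that library, at 0.56 (SE 0.23, 3.37% of all genes), with an edgeR adjusted p of 1.00 in each. With restored replicate 1 left out instead, the difference of Chd8 was 0.47 (unadjusted p = 0.101, edgeR adjusted p = 1.00). Crebbp had 0.54 (SE 0.32) and Hdac8 -0.52 (SE 0.39), which became 0.19 and -0.21 without Kmt2a+/+ replicate 1 and 0.48 and -0.47 without restored replicate 1.

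Partners of these genes were examined from a list of 75 subunits and relatives, among them the NuRD, NURF, SRCAP, NSL, MSL, KAT6, PR-DUB and TFIID subunits and the H3.3 chaperones. All 75 were tested, and none was called by edgeR in any of the 7 comparisons (0% of all genes in 6 of them and 0.00586% in that of Kmt2a+/LSL with the other genotypes). Between Kmt2a+/LSL and wild type 35 of the 75 were lower, with a median log2 fold change of 0.01, and 2 had an unadjusted p under 0.05 (1.79% of all genes), Mbd2 at -0.65 (SE 0.29) and Mbd1 at -1.14 (SE 0.51), both methyl-CpG binding proteins and both with an edgeR adjusted p of 1. Between Cre control and wild type the de novo methyltransferase Dnmt3b was the 1 such gene (1.4% of all genes), at 0.70 (SE 0.28, edgeR adjusted p = 1). Leaving out Kmt2a+/+ replicate 1 changed which genes these were in both comparisons. Between Kmt2a+/LSL and wild type 38 of the 75 were then lower and 5 had an unadjusted p under 0.05 (8.95% of all genes): Actr6 at 0.47 and Smarca5 at 0.50 were higher, and Gatad2b at -1.30, Hdac5 at -0.58 and Chd5 at -0.92 were lower, each with an edgeR adjusted p of 0.551. Between Cre control and wild type there were 4 (6.09% of all genes), Actr6 at 0.49 and Smarca5 at 0.37 higher and Chd5 at -0.80 and Hira at -0.27 lower, each with an edgeR adjusted p of 0.733. In the same fit Mbd6 was the 1 partner with an unadjusted p under 0.05 between restored and Cre control cells, at -0.52 (3.23% of all genes), and Actr6 the 1 for the difference of the cassette effects, at -0.58 (3.31% of all genes), with edgeR adjusted p of 1 and 0.995. In the 2 comparisons with wild type the higher partners had transcripts of 38.1% (Actr6) and 40.7% GC (Smarca5) and the lower ones of 46.2% (Gatad2b), 58.8% (Hdac5), 57.4% (Chd5) and 53.8% GC (Hira). Gatad2b lay within the range of the 14 lowest of the 44 genes (39.1% to 47.5%), and the other 3 lower partners within that of the 15 highest (51.7% to 60.8%). Both comparisons share the 2 remaining wild-type libraries, and these partners were named after their values were seen.

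Adnp, the gene of Helsmoortel-van der Aa syndrome, needs a reservation about its level. Of its 31-base words, 81.2% also occur in the overlapping gene model Gm20716, and reads can be divided between them. Adnp lay between 85.6 and 167 CPM and Gm20716 between 64.4 and 252 CPM, with Adnp lowest and Gm20716 highest in Kmt2a+/+ replicate 1. Their sum lay between 226 and 338 CPM, and the sum was highest in the library where Adnp was lowest.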

How the data were processed

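mNPC poly(A) RNA from 12 libraries, 3 of each of 4 genotypes, was quantified. The authors pseudoaligned reads to the mm10 (GRCm38) transcriptome with kallisto 0.48.0 and summed transcripts to genes with tximport, so that what the authors deposited is an estimated count for each gene, in whole numbers and without normalization. Tests designed for counts were applied to it directly. Ensembl identifiers were matched to GENCODE vM21 (99.1% of 18911 had a symbol), which also gave lengths, GC content and sequences. Pseudoalignment can split reads between overlapping gene models.

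R 4.3.3 was used. Genes whose libraries summed to over 10 counts, with at least 2 libraries above 0, entered edgeR 4.0.16 after TMM scaling (quasi-likelihood F test, genotype as the only term, all 12 libraries, Benjamini-Hochberg over all genes tested, threshold 0.05). Alternatives included DESeq2 1.42.0, limma 3.58.1 (voom with quality weights) and each library left out; the GC offset (loess span 0.5) and other fits without Kmt2a+/+ replicate 1 were added after seeing the data. Log2 values used a prior count of 2. For single genes, exact permutation tests of log2 values were two-sided.

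The genes and lists were chosen with earlier results of these data known. Values in every library were to be given for the 3 genes with the smallest p in each comparison, any called gene, the largest coefficient of variation and the highest and lowest level per length. Totals lay between 18280008 and 28596919, where 3 counts correspond to 0.105 to 0.164 CPM before TMM scaling.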

Additional observations from a re-analysis of the deposited data

How the results depend on the processing

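The count of called genes was 0 of 44 in each of the 7 comparisons under every alternative run, including DESeq2, limma-voom, both other filters, an adjusted p under 0.1, the Y-linked covariate, the GC offset and each library left out, where at most 37 of all genes tested had an adjusted p under 0.05 (DESeq2 without Kmt2a+/+ replicate 1, over the 4 genotypes). Median log2 fold changes that moved by more than 0.0549, the spread between libraries, were those of Kmt2a+/LSL against wild type, which was -0.13 with the GC offset, of the Cre control against wild type, which was -0.0685 with the GC offset and -0.0641 with the replicate block and GC offset, and of the difference of the cassette effects, which was 0.16 with DESeq2 size factors and 0.16 with DESeq2. Leaving out 1 library gave 0.0196 (without Kmt2a+/+ replicate 1) to 0.17 (without Kmt2a+/+ replicate 3) for the last. Without Kmt2a+/+ replicate 1, genes without overlap numbered 20 in Kmt2a+/LSL against wild type (28.7% of all genes), in place of 2 (4.05% of all genes). In the Cre control against wild type they numbered 19 (29.5% of all genes), in place of 1 (4.35% of all genes). With 1 fewer wild-type library separation is easier for any gene, and how much of the rise this makes up was not tested. The log2 difference of Tlk2 between Kmt2a+/LSL and wild type reversed to 0.0426 without Kmt2a+/+ replicate 1 in edgeR, the other end of the leave-one-out range being -0.411 without Kmt2a+/+ replicate 3, and to 0.0343 with DESeq2 without that library. The level of Chd4 was 67.5 CPM per kilobase with the exon union. The causes of the other shifts were not tested. The replicate numbers did not pair the libraries (mean correlation of same-numbered libraries 0.08 over 18 pairs, range -0.07 to 0.42), and with the replicate block 0 of 44 genes were called in every comparison and the median for Kmt2a+/LSL against wild type was -0.06.

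The width of the intervals moved with 1 wild-type library: the common biological coefficient of variation was 0.368 with 12 libraries and 0.231 without Kmt2a+/+ replicate 1. Srcap, Hdac4 and Asxl3 lie near the level where few counts decide a value. Kmt2a itself, at 0.573 of wild type, was not called by edgeR against wild type with 12 libraries, so a count of 0 does not show that the 44 genes were unchanged. With 3 libraries against 3, an exact test cannot go below 0.1, and sex was not balanced across genotypes.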
